A study of Mus musculus with 3 samples.

Results

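The digestive enzymes of the pancreas and the proteins packed with them into zymogen granules were examined with their relatives from other tissues. A probe belonged to the set when the platform's gene symbol was an elastase (Cela), a carboxypeptidase (Cpa, Cpb1), a chymotrypsin (Ctrb1, Ctrc, Ctrl), a numbered Prss or Try gene, an amylase, a pancreatic lipase or colipase gene, Cel, Pla2g1b, Rnase1, Dnase1, Gp2, Zg16, Sycn or Cuzd1. This took 66 probes of 56 genes, out of 25697 probes and 16593 named genes on the arrays. Of these, 26 genes (29 probes) were taken as enzymes or granule proteins of the pancreas, Amy1 among them as a close relative of the pancreatic amylases, and 30 genes (37 probes) encode family members known mainly from other tissues, among them 25 Prss and 4 Cpa genes. Some other pancreatic genes, among them Prss1, Pnlip and Amy2b, had no named probe and were not analysed here.

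The 3 samples form 1 group. They come from Rag1-/- mice, in which T and B cells do not mature, and the series title places them at day 10 without naming the starting event. Purified adenovirus had been injected into the splenic lobe of the pancreas, and cells positive for the red fluorescent protein Cherry were sorted from the digested acinar fraction after the islets had been removed. Sample titles name the cells induced delta cells; elsewhere the labels (the RNA extraction protocol and the series design) name induced beta cells. The labels do not name the gene or the promoter that the virus carried, nor whether each sample was 1 animal or a pool. No untreated acinar sample was analysed here, so no value below is a change.

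Acinar cells make digestive enzymes as inactive precursors, or zymogens, and store them in granules until a meal triggers their release. In the gut, enteropeptidase cuts trypsinogen to trypsin, and trypsin then activates the other zymogens. Transcription of many of these genes is known to depend on the PTF1 complex, in which Ptf1a and Rbpjl bind an E-box together with a nearby TGGGAA element. Most proteases named Prss outside the pancreas belong to the same chymotrypsin-like fold but act in testis, epithelia or immune cells.

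The arrays detected between 9145 and 9713 probes each, and the 95% limit of the negative controls lay at an intensity of 73.4, 65.7 and 63.2 on the arrays of replicates 1, 2 and 3. On the log2 scale after normalization that limit was 4.83, 4.76 and 4.75. A probe was called detected when its deposited detection p-value was under 0.05 on all 3 arrays, which 33.0% of all probes were, and a gene when any of its probes was, which 40.9% of all named genes were. Of 1058 genes for olfactory receptors, a family used mainly in the nose, 1.80% were detected. All 5 endocrine markers, Sst included (13.81 ± 0.046 on the log2 scale, SD, n = 3), were detected. So were all 6 acinar markers, of which Cpa1, Ctrb1 and Prss2 are members of the set described here. None of 3 endothelial markers, 2 of 4 myeloid markers and 3 of 5 duct markers were. Each array reads RNA pooled from many cells, so which cells held a transcript is not shown, and fewer cells of a type cannot be told apart from less RNA per cell.

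The upstream regions of 7 members are shown to set 6 genes detected here beside a relative that was not, with the letters of the E-box and of TGGGAA marked where they occur. Each run is the 250 bases before the annotated start in RefSeq on GRCm38.p6, 5′ to 3′ in the direction of the gene. Capitals mark CACCTG or CAGCTG, which are 2 forms of the E-box, and TGGGAA, searched on both strands. A TGGGAA can share its first bases with the end of a CACCTG read on the other strand. Prss2 (chr6:41521526-41521775, plus strand), Prss3 (chr6:41377614-41377863, minus strand) and Try4 (chr6:41302022-41302271, plus strand) encode trypsinogens, Cela1 (chr15:100687921-100688170, minus strand) an elastase, Cel (chr2:28563404-28563653, minus strand) the bile salt-activated lipase, and Cpb1 (chr3:20275734-20275983, minus strand) a pancreatic carboxypeptidase. Cpa3 (chr3:20242182-20242431, minus strand) encodes the carboxypeptidase of mast cells and lies near Cpb1 on the same chromosome.
Prss2: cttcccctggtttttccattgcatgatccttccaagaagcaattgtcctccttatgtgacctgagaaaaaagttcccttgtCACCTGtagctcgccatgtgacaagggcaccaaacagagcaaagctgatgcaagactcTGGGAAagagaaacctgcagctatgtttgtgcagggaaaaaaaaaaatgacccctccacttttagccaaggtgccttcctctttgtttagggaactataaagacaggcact
Prss3: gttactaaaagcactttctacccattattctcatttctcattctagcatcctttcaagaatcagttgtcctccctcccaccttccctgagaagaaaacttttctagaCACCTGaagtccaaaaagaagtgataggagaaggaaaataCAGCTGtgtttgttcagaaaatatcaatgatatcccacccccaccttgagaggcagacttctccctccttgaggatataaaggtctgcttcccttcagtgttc
Try4: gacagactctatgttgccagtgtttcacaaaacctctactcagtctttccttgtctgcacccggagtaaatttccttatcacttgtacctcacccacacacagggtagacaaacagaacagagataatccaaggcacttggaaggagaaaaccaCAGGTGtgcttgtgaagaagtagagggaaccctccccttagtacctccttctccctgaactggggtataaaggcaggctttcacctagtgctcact
Cela1: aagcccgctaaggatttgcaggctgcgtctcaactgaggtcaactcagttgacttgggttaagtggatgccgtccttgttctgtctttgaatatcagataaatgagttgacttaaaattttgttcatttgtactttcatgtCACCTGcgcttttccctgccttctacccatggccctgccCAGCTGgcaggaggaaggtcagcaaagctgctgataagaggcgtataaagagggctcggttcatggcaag
Cel: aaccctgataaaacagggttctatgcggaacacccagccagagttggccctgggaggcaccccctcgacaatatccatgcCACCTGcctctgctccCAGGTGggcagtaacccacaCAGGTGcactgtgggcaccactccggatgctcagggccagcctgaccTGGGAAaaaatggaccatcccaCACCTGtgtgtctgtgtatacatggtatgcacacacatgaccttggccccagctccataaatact
Cpb1: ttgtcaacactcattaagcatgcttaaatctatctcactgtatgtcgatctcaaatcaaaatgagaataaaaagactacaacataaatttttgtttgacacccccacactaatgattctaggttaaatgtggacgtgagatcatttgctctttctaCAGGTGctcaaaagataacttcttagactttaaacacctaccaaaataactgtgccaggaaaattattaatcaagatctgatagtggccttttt
Cpa3: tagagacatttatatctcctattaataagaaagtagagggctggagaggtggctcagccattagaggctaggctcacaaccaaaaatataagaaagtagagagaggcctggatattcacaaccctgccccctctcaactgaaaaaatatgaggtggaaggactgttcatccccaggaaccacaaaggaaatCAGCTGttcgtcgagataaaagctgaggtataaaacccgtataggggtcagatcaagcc

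In these windows the Prss2 sequence held a CACCTG whose first base lay at -169 and a TGGGAA at -111, counted back from the start. The Cel sequence held 4 CACCTG and 1 TGGGAA, and the Cela1 sequence a CACCTG at -109 and a CAGCTG at -70. Prss3, Try4 and Cpb1 each held 1 CACCTG. Of the 7 sequences shown, those of Prss2 and Cel held an E-box form and a TGGGAA. The spacing between the motifs was not assessed, so neither window is called a PTF1 site. Those of the detected genes Prss3, Try4, Cela1 and Cpb1 held no TGGGAA. The Cpa3 sequence held a CAGCTG at -59 and neither of the other 2 motifs. Of the detected pancreatic members, 20 had an upstream region in the table. CACCTG was present in 10 of these (50%) against 19.4% of all 27025 genes of the table, TGGGAA in 11 (55.0%) against 24.1%, and CAGCTG in 6 (30.0%) against 14.7%. Among 21 non-pancreatic members that were not detected, the shares were 28.6% for CACCTG, 19.0% for TGGGAA and 23.8% for CAGCTG. These are counts of letters in a fixed window, given as a description with no test. The trypsinogen upstream regions shown were not copies of each other: the identity of the aligned 250 bases was 47.2% for Prss2 and Prss3, 56.0% for Prss2 and Try4, and 52.0% for Prss3 and Try4.

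Transcripts of the pancreatic members were detected for 25 of 26 genes (96.2%), against 40.9% of all named genes, and for 24 of 25 without Amy1. Of the non-pancreatic relatives, 2 of 30 genes were detected (6.67%). All 28 detected pancreatic probes had a detection p-value of 0 on every array, so that no negative control bead type was brighter, and their intensities ran from 2.01 to 765 times the median negative control of the same array. The 1 pancreatic gene that was not detected was Dnase1. Probes differ in how well they bind their target, so levels of different probes were not set against each other.

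**Figure D1:**
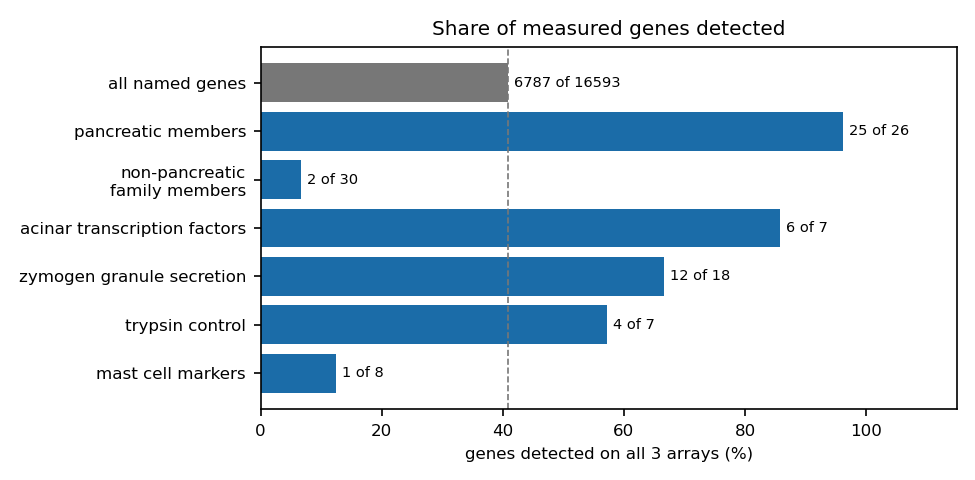
Share of measured genes detected on all 3 arrays, in percent (bars), with the number detected of the number measured beside each bar. The dashed line marks all named genes (40.9%). The pancreatic members lie at 25 of 26 and their non-pancreatic relatives at 2 of 30.

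Trypsinogens, the zymogens whose activation starts the cascade, were detected for all 5 measured genes. Intensities of Prss2 were 19201, 17526 and 20481 on the arrays of replicates 1, 2 and 3 (log2 level 14.22 ± 0.089, SD, n = 3 here and for every level below). Those of Prss3 were 24888, 24166 and 23019 (14.54 ± 0.058). Those of Try10 were 13289, 14839 and 15890 (13.83 ± 0.10). Prss2 and Try10 were highest on replicate 3, whereas Prss3 was highest on replicate 1. Try4 read 35180, 33436 and 31718 (15.03 ± 0.012). Try5 read 36773, 34331 and 32089 (15.07 on every array after normalization). Both were highest on replicate 1 and lowest on replicate 3 before normalization. In the RefSeq table these genes form 1 block inside the T cell receptor beta locus, between the segments Trbv30 and Trbd1, with 9 entries between Try4 and Prss2. No probe sequence was used, and members of such a block may share probe targets, so each trypsinogen value is uncertain as to the gene it reads.

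Chymotrypsinogens cut after bulky hydrophobic residues once active, and all 3 measured genes were detected. Ctrb1, chymotrypsinogen B, read 24894, 24782 and 24402 (14.59 ± 0.0068). Ctrl, a chymotrypsin-like protease, read 22261, 19551 and 20347 (14.33 ± 0.089). Ctrc, chymotrypsin C, which in humans breaks down trypsinogen, read 732, 734 and 740.2 (9.44 ± 0.056). The Ctrb1 and Ctrc intensities differed by no more than 1.02 and 1.01 times between the highest and the lowest array, and that of Ctrl by 1.14 times. In the RefSeq table Ctrc is listed as a transcribed pseudogene of this reference strain, next to Cela2a.

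Elastases were detected for all 3 measured genes. Cela1 read 21798, 22222 and 22501 (14.44 ± 0.039). Cela2a read 46210, 38751 and 36621 (15.28 ± 0.039). Cela3b read 8308, 8446 and 8400 (13.02 ± 0.011). The deposited Cela2a intensity was highest on replicate 1, by 1.26 times over replicate 3, the widest ratio among the detected pancreatic probes, while those of Cela1 and Cela3b stayed within 1.03 and 1.02 times.

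Carboxypeptidases remove residues from the end of the peptides that the other proteases leave. Cpa1 read 23063, 23374 and 23281 (14.50 ± 0.019). Cpb1 read 13685, 13176 and 13738 (13.70 ± 0.045). Both were detected, with ratios between the highest and the lowest array of 1.01 and 1.04. Their neighbours in the genome differed in detection: Cpa5, the next entry to Cpa1 in the RefSeq table, and Cpa4, separated from Cpa5 by 1 entry, were detected on no array. The same held for Cpa3, which is separated from Cpb1 by 3 entries, none of them protein-coding, and for Clpsl2, the next entry to the detected Clps.

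Amylases split starch, and both measured genes were detected. Amy1, the amylase gene of salivary gland and liver, read 131, 146 and 156 (6.68 ± 0.18), or 2.17, 2.69 and 3.00 times the median negative control. The brighter of 2 probes for Amy2a5, a pancreatic amylase gene, read 798, 815 and 922 (9.65 ± 0.084), and the dimmer read 121, 122 and 137 (6.42 ± 0.15). All 3 amylase probes were highest on replicate 3. The pancreatic amylase genes are near-identical copies of which Amy2a5 alone had a named probe, so its values may include other copies, and the low intensities do not show that amylase transcripts were scarce.

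Lipases and their cofactor were detected for all 5 measured genes. Cel read 24622, 24138 and 24589 (14.58 ± 0.040). Pla2g1b, the pancreatic phospholipase A, read 21043, 20468 and 21328 (14.34 ± 0.019). Pnliprp1, a lipase-related protein with little known lipase activity, read 34291, 30982 and 28895 (14.90 ± 0.081). Of these, Pnliprp1 alone was highest on replicate 1 by more than 1.1 times (ratio to replicate 3 1.19). Pnliprp2, a lipase of galactolipids and milk fat, had 1 probe at 2529, 3033 and 3061 (11.47 ± 0.092) and another at 436, 427 and 456 (8.64 ± 0.067). Clps, which encodes colipase, the cofactor that anchors pancreatic lipase to fat droplets, had 1 probe at 40552, 37299.7 and 32725 (15.16 ± 0.046) and another at 15619, 15510 and 17801 (13.98 ± 0.051). The 2 Clps probes disagreed in direction: the brighter was lowest on replicate 3 and the dimmer was highest there.

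Nucleases gave both kinds of result. Rnase1, the pancreatic ribonuclease, read 31025, 31204 and 30892 (14.95 ± 0.038), within 1.01 times over the arrays, the narrowest ratio among the detected pancreatic probes. Dnase1, a secreted endonuclease, read 60.1, 50.3 and 49.1 (4.31 ± 0.039), with detection p-values of 0.520, 0.794 and 0.712. Its single probe was thus close to the median negative control on every array (0.995, 0.928 and 0.948 times), which gives a bound at this probe and not proof that the gene was silent.

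Granule proteins that are not enzymes were detected for all 4 measured genes. Gp2, the main glycoprotein of the granule membrane, read 28848, 27805 and 29084 (14.79 ± 0.060). Zg16, a lectin-like protein that binds the granule membrane, read 30376, 30002 and 30208 (14.88 ± 0.023). Sycn, which encodes syncollin, a protein on the inner face of that membrane, read 14083, 14643 and 14772 (13.82 on every array after normalization). The 3 intensities of Gp2, Zg16 and Sycn varied by 1.05, 1.01 and 1.05 times. Cuzd1, a CUB and zona pellucida domain protein of the granule, read 12841, 13025 and 13833 (13.69 ± 0.0038), and was 1.08 times higher on replicate 3 than on replicate 1.

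**Figure D2:**
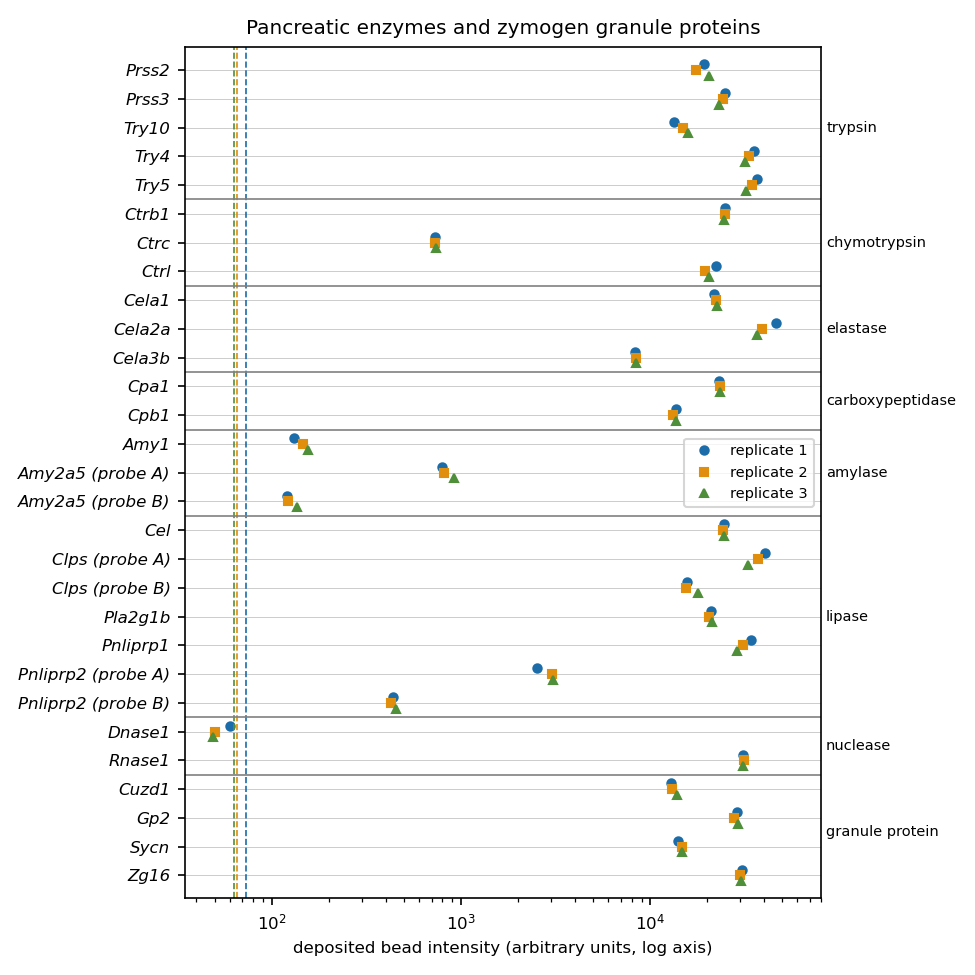
Deposited bead intensity (arbitrary units, log axis) of each pancreatic probe on the 3 arrays, grouped by role, with 1 point per array. Dashed lines in the same colours mark each array's 95% limit of the negative controls (63.2 to 73.4). The 3 points of Dnase1 lie below the limits and all other points above them, from 121 for a probe of Amy2a5 to 46210 for Cela2a. Distances between genes are not levels of expression, since probes differ in efficiency.

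Among the non-pancreatic relatives, 1 gene stood well clear of background. Prss8 encodes prostasin, a membrane-anchored protease of epithelia that activates the epithelial sodium channel. Its brighter probe read 692, 653 and 712 (9.33 ± 0.10), or 11.5, 12.05 and 13.7 times the median negative control. Its second probe read 220.1, 214 and 234 (7.51 ± 0.076). Both probes were lowest on replicate 2 and highest on replicate 3, with ratios of 1.09 and 1.10.

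The other relatives lay at or near background. Prss42, a protease of testis, read 76.7, 72.6 and 67.7 (5.0 ± 0.061), with detection p-values of 0.0251, 0.01003 and 0.0163. It passed the detection rule narrowly and failed it at a p-value of 0.01. Prss35, a protease-like protein of the ovary, read 73.0, 67.4 and 67.6, and passed on replicates 2 and 3 only (detection p-values of 0.0551, 0.0301 and 0.0163). Prss41 passed on replicate 3 only, at 65.4 (detection p-value of 0.0238), and Cpa6, a carboxypeptidase of the extracellular matrix, on replicate 2 only, at 66.3 (detection p-value of 0.0414). The remaining 25 genes had no probe that passed on any array. Their 31 probes spanned intensities of 44.4 to 73.0 and log2 levels of 4.22 to 4.81, with a lowest detection p-value of 0.0526.

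**Figure D3:**
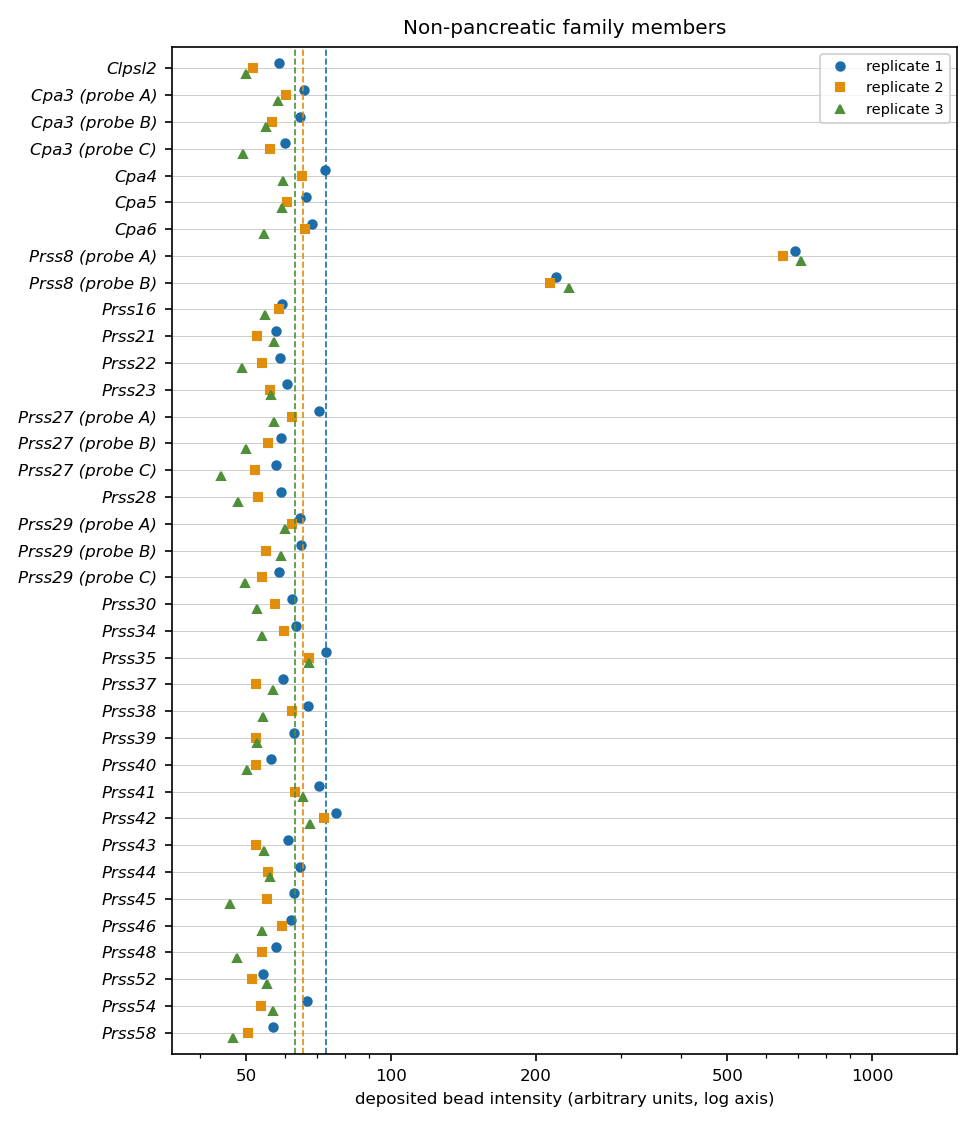
Deposited bead intensity (arbitrary units, log axis) of each non-pancreatic probe on the 3 arrays, with 1 point per array. Dashed lines in the same colours mark each array's 95% limit of the negative controls. The points of both Prss8 probes lie between 214 and 712, and those of all other probes between 44.4 and 76.7.

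Cpa3 and Prss34 are proteases of mast cells and basophils, and neither was detected. The 3 Cpa3 probes had detection p-values of 0.144 or more on every array. Of 8 measured mast cell markers, 1 was detected (12.5%, against 40.9% of all named genes), Hdc, the enzyme that makes histamine (7.40 ± 0.089), whereas Mcpt4 (4.26 ± 0.027), Tpsb2 (4.32 ± 0.078), Tpsab1 (4.42 ± 0.087), Fcer1a (4.45 ± 0.088) and Ms4a2 (4.28 ± 0.023) were at background on every array. Cma1, a mast cell chymase, passed on 2 arrays (4.78 ± 0.034).

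Other genes of the zymogen pathway were detected unevenly. Of the trypsin control list, 4 of 7 measured genes were detected (57.1%, against 40.9% of all named genes). Spink1, the trypsin inhibitor that acinar cells pack with trypsinogen, read 14.73 ± 0.072, Serpini2, a serpin of the exocrine pancreas, 8.85 ± 0.22, Ctsb, the lysosomal cathepsin that can activate trypsinogen, 12.88 ± 0.038, and Ctsd, another cathepsin, 5.76 ± 0.026 on the log2 scale. Ctsl (4.60 ± 0.28) and Serpina1a (4.67 ± 0.15) passed on 1 array each. Tmprss15, which encodes enteropeptidase, was at background on every array (4.44 ± 0.052).

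Of the granule secretion list, 12 of 18 measured genes were detected (66.7%, against 40.9%). Chrm3, the muscarinic receptor through which acetylcholine triggers enzyme release, read 6.39 ± 0.099. Dmbt1, a large secreted scavenger receptor-like protein, read 14.67 ± 0.038, Klk1, the tissue kallikrein, 14.20 ± 0.038, Muc1, a membrane mucin, 8.47 ± 0.073, and Rab27a, a GTPase of secretory granules, 9.30 ± 0.065. Among those at background on every array were Cckar, the cholecystokinin receptor of acinar cells (4.37 ± 0.011), Chrm1, another muscarinic receptor (4.32 ± 0.033), and Cplx2, which encodes complexin 2 (4.57 ± 0.093). Both calls rest on single probes for Chrm3 and Cckar. The acinar factor list had 6 of 7 genes detected (85.7%, against 40.9%), among them both PTF1 components, Ptf1a (8.84 ± 0.033) and Rbpjl (12.25 ± 0.041). Bhlha15, Gata6 and Nr5a2 were detected as well (9.27 ± 0.0041, 9.35 ± 0.097 and 7.18 ± 0.20), and Gata4 passed on 2 arrays (4.71 ± 0.23).

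The arrays differed little in the enzyme and granule genes. The 66 probes held 10.1%, 9.70% and 9.65% of the summed deposited intensity on the arrays of replicates 1, 2 and 3. The ratio of the highest to the lowest array ran from 1.01 to 1.26 among the 28 detected pancreatic probes, with a median of 1.08, against a median of 1.11 for all 8486 detected probes. In deposited intensity, 15 of the 28 probes were highest on replicate 3 (53.6%, against 31.3% of all detected probes), 10 on replicate 1 (35.7%, against 39.5%) and 3 on replicate 2 (10.7%, against 29.2%). These counts moved with the scaling. After quantile normalization 8, 2 and 9 probes were highest on replicates 1, 2 and 3 alone and 9 shared their highest level between arrays. With median scaling 7, 2 and 19 were highest. The shares over all detected probes were not computed on these scales, so these counts are not read as a trait of the members. With median scaling the median deviation on replicate 3 was 0.060 for all detected probes and 0.036 for the pancreatic probes. Deposited intensities had no background subtracted, and the median negative control was 60.4, 54.2 and 51.9 on replicates 1, 2 and 3. In deposited intensity the brightest probes went the other way. Of the 7 with a mean intensity over 30000, a line chosen after the values were seen, 6 were highest on replicate 1 and none on replicate 3; of all 13 detected probes that bright, 11 were highest on replicate 1. The deposited columns share 1 mean over all probes, and whether that scaling bears on these counts was not tested.

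**Figure D4:**
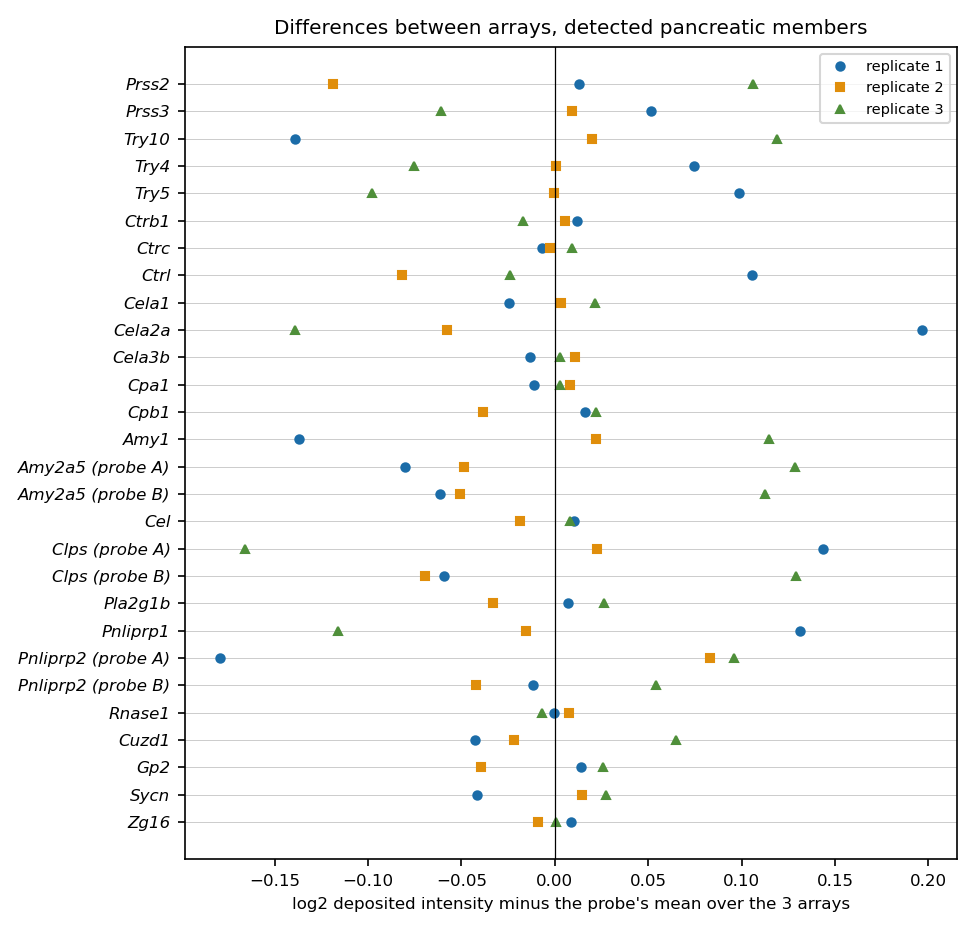
Difference between arrays for each detected pancreatic probe, as log2 deposited intensity minus the probe's mean over the 3 arrays, with 1 point per array. The brightest probes (Cela2a, the brighter Clps probe, Pnliprp1, Try4 and Try5) have replicate 1 to the right and replicate 3 to the left, and most dimmer probes have replicate 3 to the right.

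Background correction and normalization changed these small differences. Quantile normalization gives probes of equal rank an equal value. Of the 28 detected pancreatic probes, 14 had the same log2 level on at least 2 arrays, Sycn and Try5 among them on all 3, and the other 14 had 3 different levels. The range over the arrays had a median of 0.084 log2 units for these 28 probes on the normalized scale and 0.11 in deposited intensity. For Cela2a it was 0.067 on the normalized scale and 0.34 in deposited intensity, so the SD given above with its log2 level is smaller than the spread of its deposited intensities. For Rnase1 it was larger on the normalized scale (0.066) than in deposited intensity (0.0145), as it was for Zg16 (0.045 and 0.018). For Amy1 it was 0.35 on the normalized scale, 0.25 in deposited intensity, 0.52 with median scaling and 0.26 with an offset of 50.

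**Figure D5:**
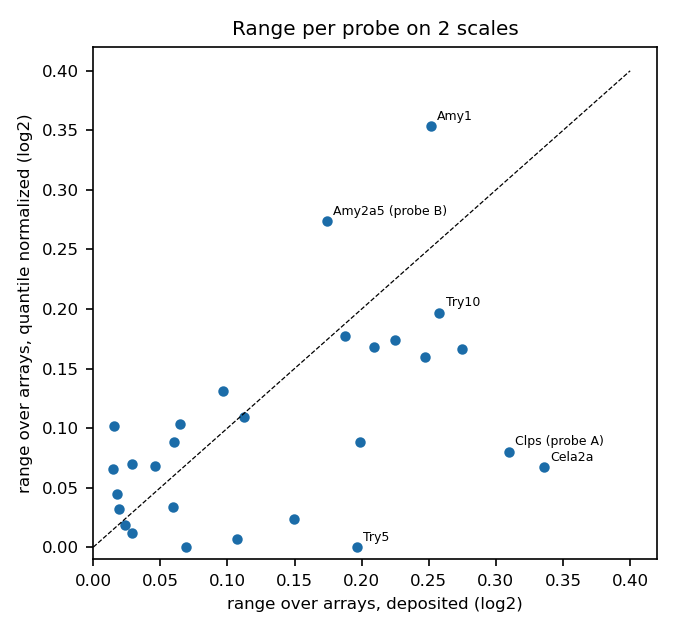
Range over the 3 arrays of each detected pancreatic probe in log2 deposited intensity (x axis) and after background correction and quantile normalization (y axis, log2), with 1 point per probe. The dashed line marks equal ranges. Cela2a and the brighter Clps probe lie far below the line, and Amy1 and the dimmer Amy2a5 probe above it.

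Whether a member varied more between the arrays than probes of similar level was then tested. In an F test against the limma prior variance, 0 of 31 detected member probes passed after Benjamini-Hochberg adjustment over 8486 probes (lowest adjusted p = 0.989). Of all tested probes, 0% did. At an unadjusted p under 0.05, 1 of 31 did, against 4.80% of all tested probes. The 5 members with the lowest p were Try10 (unadjusted p = 0.0479), Ctrl (0.0717), Prss2 (0.0735), Pnliprp1 (0.0896) and Amy1 (0.113), all from the same F test. A p that misses the threshold does not show that the 3 samples were alike. The test used the quantile-normalized values, in which 14 of the 28 detected pancreatic probes had equal levels on at least 2 arrays. For these probes it cannot show how far the deposited intensities varied.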

How the data were processed

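Total RNA of each replicate was read on 1 array of the Illumina MouseRef-8 v2.0 beadchip type, 3 arrays in all. Whether the arrays shared a beadchip was not examined here. The authors deposited a table with an average bead intensity for every probe and its detection p-value, per the file headers; its intensity columns share 1 mean, so they had been scaled before deposit, with no background subtracted. A further deposited table gives intensity values after the authors' processing, in columns that share 1 distribution. For the scanner software, no name was found in the labels or headers.

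Genes were named through the platform annotation, and 23962 probes matched a RefSeq table of GRCm38.p6 by Entrez identifier, with 0 symbols changed. Intensities were corrected by normexp with controls inferred from the detection p-values (offset 16), quantile normalized and taken to log2 (neqc, limma 3.58.1, R 4.3.3). The brightest probe stands for a gene of the pathway and marker lists, and every probe of a pancreatic member is given. Named were every pancreatic member, every relative that passed on at least 1 array, the first detected (up to 5) and undetected (up to 3) genes of each pathway list in alphabetical order, and the 5 lowest p-values. The variance test set each probe's variance over the arrays against the trended prior of limma (squeezeVar). Its p-value came from a one-sided F test on that ratio, and the test was tried on simulated data. A probe with equal levels on every array was given a very small positive variance. The simulated shifts were 1 and 3 log2 units on 1 array, wider than any member range here. Power at the smaller differences seen here was not tested. With 1 group no comparison between groups was made, and the number of arrays limits the precision. The labels tie no sample to an animal, so p-values measure the spread between these samples, which may be technical. Members and lists were chosen with earlier results of these data known. The names Spink3, F2rl1, Stx4, Itmap1, Kit and Cd68 of those lists had no named probe. Whether any of them is an older symbol of a gene measured here was not checked. Alternatives changed the detection rule, the scaling, the offset, the prior or left out a replicate.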

Additional observations from a re-analysis of the deposited data

How the results depend on the processing

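The count of 25 detected pancreatic genes was the same at a detection p of 0.01, with 2 of 3 arrays, with p-values adjusted within each array and without any 1 replicate, and 24 of 25 without Amy1, an alternative chosen after seeing the data. The count of detected relatives fell from 2 to 1 at a detection p of 0.01 and with adjusted detection p-values, where Prss42 was lost, and ranged from 2 to 3 when a replicate was left out; without replicate 1 it was 3, Prss35 being added. The 3 pathway lists together had 22 genes detected, and 22 or 23 under these alternatives. Over the same alternatives all named genes detected ranged from 5872 to 7421. The variance test against the limma prior called 0 member probes under every alternative run. Among all tested probes it called 36 of 8486 with median scaling, and 22 of 25697 when every probe was tested. At such low shares, 0 calls among 31 or 66 members is near the background. The median range of detected member probes was 0.088, against 0.166 for all detected probes. Over the 2 arrays left without 1 replicate, where a range tends to be narrower, it was 0.041 to 0.068, against 0.093 to 0.103. With median scaling it was 0.145, against 0.220, and in the authors' processed values 0.063, against 0.123. Members and background were closer with an offset of 50 (0.088, against 0.121) and in deposited intensity (0.125, against 0.144). The background medians cover detected probes of all levels, so they are not matched to the members in brightness. With median scaling the median of all detected probes also shifted by -0.090, 0.027 and 0.060 on replicates 1, 2 and 3, and that of the pancreatic probes by -0.022, 0.0038 and 0.036. Of 31 gene levels, 24 moved by more than 1 SD in the authors' processed values, which lie on another scale. No paired analysis was possible because the samples form 1 group. Intensity near the negative controls limits Prss42, Prss35, Prss41, Cpa6 and Dnase1, where a probe at background does not show a silent gene.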
